A study of Mus musculus with 2 samples.

Results

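Molecular chaperones are proteins that help other proteins fold, assemble, move or be degraded. HSP70 proteins hold unfolded stretches of a client protein in a cycle driven by ATP, J-proteins (the Dnaj genes) deliver clients and trigger that cycle, and HSP110 proteins and BAG proteins release the nucleotide. HSP90 proteins take over many clients, among them kinases and steroid receptors, and the chaperonins TRiC (cytosol) and HSP60 with HSP10 (mitochondrion) fold proteins inside a closed chamber. Some of these genes are transcribed all the time, while others are induced by the heat shock factors or, in the endoplasmic reticulum, by the unfolded protein response. In neurons they serve folding in general as well as synaptic steps such as the uncoating of clathrin-coated vesicles.

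The genes described here were taken by symbol from the annotation: those with a protein-coding transcript and a symbol for an HSP70, HSP90, HSP60, HSP10 or small heat shock protein, a J-protein, a TRiC subunit, a BAG protein, St13 or Stip1. The rule took 90 genes of the 55536 gene rows, which hold 22028 protein-coding genes. They are 45 J-proteins, 14 HSP70 and HSP110 genes, 9 BAG proteins and other co-chaperones, 8 TRiC subunits, 7 small heat shock proteins, 3 HSP90 genes, the 2 mitochondrial chaperonin genes and 2 genes taken for their symbols, Hspb11 and Hspbap1. Cct6a, a subunit of TRiC, is not among them because the annotation gives it no protein-coding transcript, and it was at 77.5 and 73.7 TPM.

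The tissue was left cerebral cortex, and its total RNA was sequenced in 2 males aged 2 months of the mouse strain B6CASTF1/J, the first-generation hybrid of C57BL/6J and CAST/EiJ, with 1 library per animal, called replicate 1 and replicate 2. No treatment, transgene or deletion is given in the labels, and both animals form 1 group, so no condition is compared with another. Each library started from 300 ng of RNA with ERCC spike-ins and reached 33007629 and 32142918 expected counts. Levels are TPM as deposited (transcript abundance corrected for length and scaled to the same total in each library), written as replicate 1 and replicate 2 or as mean ± SD (n = 2). All 6 excitatory neuron markers of the list were detected, as were all 6 astrocyte and all 6 oligodendrocyte markers, and in bulk tissue fewer cells of a type and less RNA per cell cannot be told apart. The libraries differed in what they contained: all 7 striatal markers were lower in replicate 2 (median log2 ratio -1.14), all 6 oligodendrocyte markers were lower (median -0.28), all 7 tested immediate early genes were higher (median 0.37) and the choroid plexus gene Ttr was higher (3.37).

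Of the 90 genes, 78 were detected, meaning at least 1 TPM in both libraries, a share of 86.7% against 58.7% of nuclear protein-coding genes. Together they made up 6168 and 5655 TPM, which is 1.32% and 1.24% of the TPM on nuclear protein-coding genes. The median detected gene of the set stood at 30.55 TPM, against 15.9 TPM over 12921 detected nuclear protein-coding genes. A mean of 100 TPM was reached by 12 of the 90 (13.3%), against 4.21% of nuclear protein-coding genes. The HSP70 and HSP110 genes held 31.51% and 31.04% of the sum, the 45 J-proteins 24.4% and 25.6% and the 3 HSP90 genes 23.9% and 23.0%. The TRiC subunits held 9.40% and 9.48%, the co-chaperones 8.35% and 8.41%, the mitochondrial chaperonin 1.90% and 1.96% and the small heat shock proteins 0.359% and 0.363%.

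**Figure D1:**
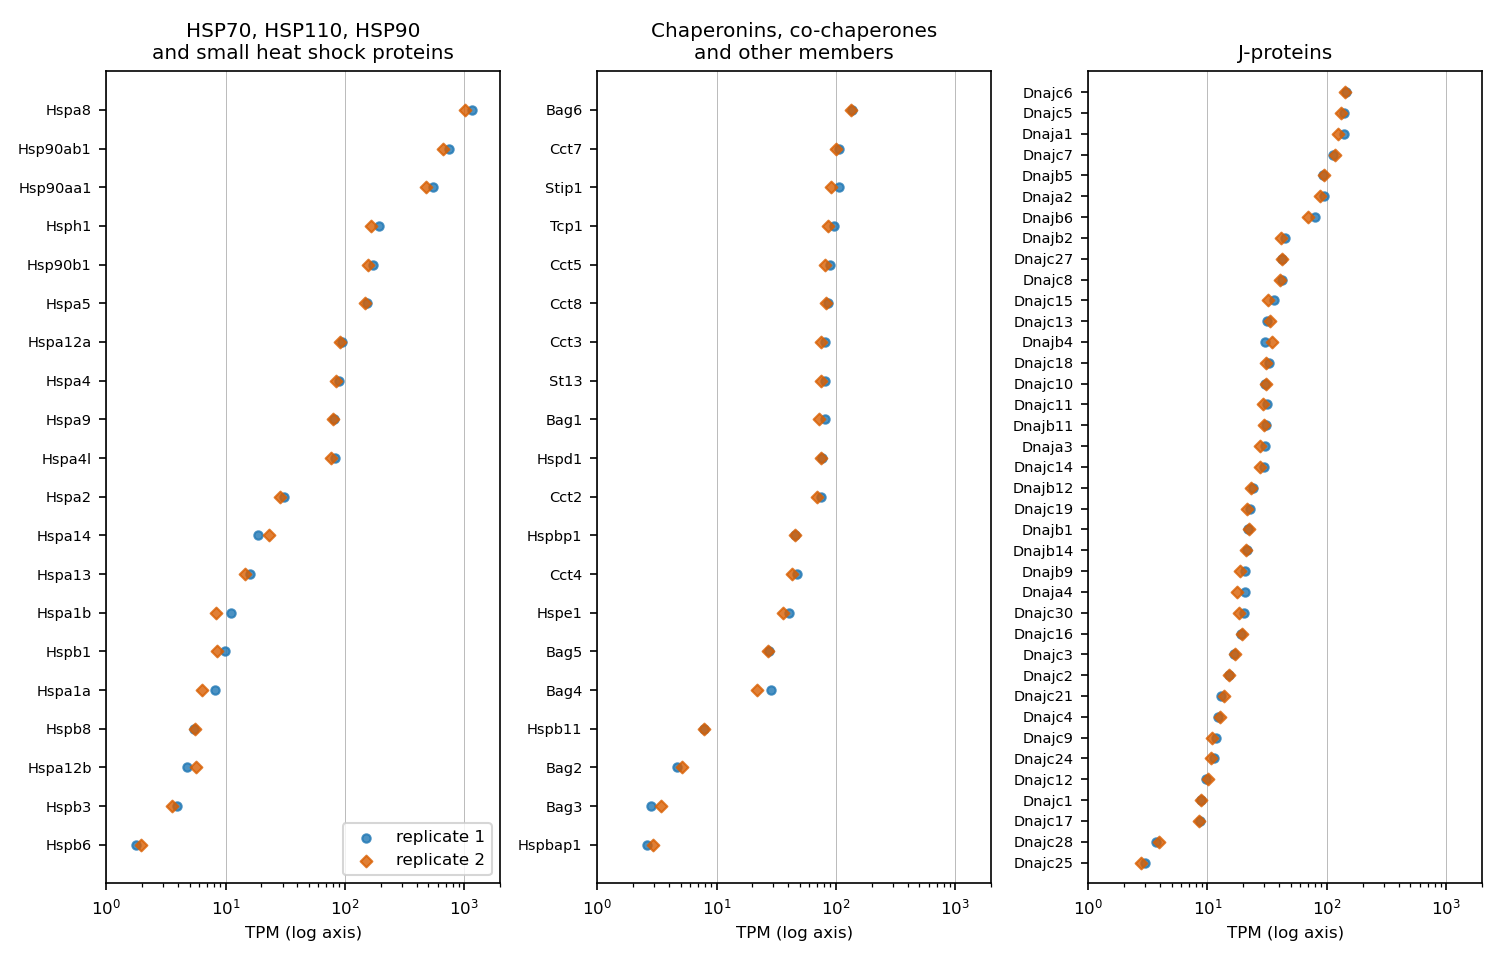
TPM of the 78 detected genes in each animal, on a log axis, with circles for replicate 1 and diamonds for replicate 2, ordered by mean within each panel. Hspa8 (1162 and 1025 TPM), Hsp90ab1 and Hsp90aa1 stand apart at the top of the left panel, and the TRiC subunits of the middle panel lie close together.

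The HSP70 and HSP110 genes together were at 1849 ± 133 TPM, and the constitutive cytosolic gene led them. Hspa8 (ENSMUSG00000015656.17, chr9:40800984-40810087), the HSC70 protein that also strips clathrin from vesicles, was at 1162 and 1025 TPM. The next were Hsph1, an HSP110 nucleotide exchange factor, at 192 and 165 TPM, and Hspa5, the HSP70 of the endoplasmic reticulum also called BiP, at 154 and 148 TPM. The value of Hspa8 was 7.25 ± 0.435 times that of Hspa5, and 5.90 ± 0.719 times in the other deposited quantification, described below. A group of 4 genes followed: Hspa12a (92.8 ± 1.39), an HSP70 relative, the HSP110 genes Hspa4 (86.0 ± 3.47) and Hspa4l (79.2 ± 4.72), and Hspa9 (80.4 ± 1.47), the mitochondrial HSP70 mortalin. Within this group Hspa9 and Hspa4l differed by less than the spread between the animals. Hspa2, best known from the testis, was at 30.9 and 28.7 TPM, Hspa14, which works at the ribosome, at 18.6 and 23.3, Hspa13, a relative of the endoplasmic reticulum, at 16.1 and 14.6 and Hspa12b, another relative, at 4.79 and 5.66.

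The pair of strongly heat-inducible HSP70 genes was low. Hspa1b (ENSMUSG00000090877.3, chr17:34956436-34959238) was at 11.05 and 8.32 TPM, and Hspa1a (ENSMUSG00000091971.3, chr17:34969190-34972156) at 8.14 and 6.39 TPM. Hspa8 stood 65.1 ± 6.45 times above the sum of both (68.0 ± 4.47 in the other quantification, a second deposited transcript table made directly from reads). Hspa1b was above Hspa1a in each animal, 1.36 and 1.30 times, and the order was the same in the other quantification (1.30 and 1.33). How their reads should be split cannot be settled here, since 67.6% of the 31-base words of Hspa1b transcripts also occur in Hspa1a and 63.8% the other way. The third gene of this cluster, Hspa1l, a testis gene, starts 547 bases from Hspa1a on the opposite strand and was at 0.10 and 0.15 TPM. It was the single gene of the set whose deposited posterior SD passed 5% of its count (13.3% and 9.76%).

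The start regions of Hspa1a and Hspa1b are shown because they are nearly the same sequence. Over the 250 bases before the start they are identical at 247 positions, and over the 300-base window that also holds 50 bases after the start at 296. The differences from Hspa1a to Hspa1b, counted from 1 at the 5′ end of that window, are C44T, T47C, T249G and C276T. Sequences and windows are from RefSeq (build GRCm38.p6, the assembly behind mm10), printed 5′ to 3′ on the gene's strand, and capitals mark the letters GAANNTTC, a pair of the inverted units that heat shock factors bind. Both stretches lie on the minus strand, at chr17:34972157-34972406 for Hspa1a and chr17:34959239-34959488 for Hspa1b.
Hspa1a: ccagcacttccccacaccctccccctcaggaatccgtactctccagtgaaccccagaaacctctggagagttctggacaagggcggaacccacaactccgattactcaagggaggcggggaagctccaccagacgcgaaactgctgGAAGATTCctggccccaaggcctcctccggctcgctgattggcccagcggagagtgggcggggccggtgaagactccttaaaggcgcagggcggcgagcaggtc
Hspa1b: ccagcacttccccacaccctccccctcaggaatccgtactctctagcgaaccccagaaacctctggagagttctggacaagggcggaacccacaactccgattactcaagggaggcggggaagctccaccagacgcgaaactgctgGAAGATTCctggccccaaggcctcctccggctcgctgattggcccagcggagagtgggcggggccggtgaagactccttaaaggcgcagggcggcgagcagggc
The match lies at -104 to -97 in both. The pattern is short: 21.9% of the 73 genes of the set with a RefSeq window hold it on either strand, as do 9.04% of all 27025 genes.

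HSP90 was carried by the cytosolic genes. Hsp90ab1 (chr17:45567775-45573271), the HSP90 beta gene, was at 750 and 666 TPM, and Hsp90aa1 (chr12:110690605-110702728), HSP90 alpha, at 553 and 479 TPM. Hsp90b1, the endoplasmic reticulum form GRP94, was at 174 and 155 TPM. Hsp90ab1 was 1.37 ± 0.0244 times Hsp90aa1 in the alignment-based table, but 0.938 ± 0.0147 times in the other quantification. A short form, Hsp90aa1-207, annotated with 98 amino acids, held 5.04 and 5.2 TPM in the first table and 591 and 507 TPM in the second. Counting only the forms that encode the whole proteins (733 amino acids for Hsp90aa1-201 and Hsp90aa1-202, 724 for Hsp90ab1-201), Hsp90ab1 was 1.52 and 1.57 times Hsp90aa1 in the first table and 1.48 and 1.53 times in the second. The order of the gene totals thus differed between the quantifications while that of the whole forms did not. Of the 31-base words of Hsp90aa1, 46.7% also occur in 1 other annotated gene, Gm12346.

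The TRiC subunits, which assemble into rings with 1 copy of each, were at similar levels as gene totals. Tcp1 and the Cct genes other than Cct6b lay between 47.3 and 106 TPM in replicate 1 and between 42.9 and 99.9 in replicate 2. The coefficient of variation over the 7 genes was 22.6% and 23.0%, and 32.4% and 28.7% in the other quantification. These totals include non-coding forms, which held from 0.908% of Cct2 to 47.6% of Cct7, with Cct3 at 44.6%. The order given here is that of the totals. Cct7 was the highest (106 and 99.9 TPM) and Cct4 the lowest (47.3 and 42.9), a ratio of 2.25 and 2.33. Tcp1 (96.0 and 85.3 TPM) and Cct5 (88.6 and 80.4) overlapped in their values over the animals, as did Cct5 with Cct8 (85.6 and 83.2) and with Cct3 (81.5 and 75.1). Both values of Tcp1 and of Cct8 were above those of Cct3, and Cct2 was at 71.95 ± 3.59. The top of the order changed with the quantification, where Cct8 led and the range was 2.50 and 2.38-fold, while Cct4 was lowest in both. Cct6b, a testis form, was at 0.08 and 0.06 TPM.

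Hspd1, the HSP60 gene, was at 76.4 and 75.1 TPM, and Hspe1, its co-chaperonin HSP10, at 40.6 and 35.8 TPM. The ratio of Hspd1 to Hspe1 was 1.99 ± 0.152, and 1.43 ± 0.0871 in the other quantification. These genes face away from each other on chromosome 1, their annotated bodies overlap by 112 bases at the starts, and the mitochondrial HSP70 Hspa9 was at nearly the level of Hspd1 (1.06 ± 0.00643 times). Both share sequence with other genes: 46.5% of the words of Hspd1 occur in Hspd1-ps3, and 24.8% of those of Hspe1 occur elsewhere.

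Small heat shock proteins, which hold aggregating proteins without ATP, were the lowest family, at 21.3 ± 1.14 TPM for all 7 genes. Hspb1, also called Hsp25 in mouse, was at 9.87 and 8.53 TPM, with 52.3% of its words shared with Hsp25-ps1. Hspb8 was at 5.40 and 5.56 TPM, Hspb3 at 3.91 and 3.57 and Hspb6 at 1.77 and 1.96. Hspb2 (0.75 and 0.65), Hspb7 (0.26 and 0.25) and Hspb9 (0.17 and 0) were under the detection limit. For scale, Cryab, a small heat shock protein outside the symbol rule, was at 65.8 and 55.0 TPM, above the sum of the 7. Hspb2 overlaps Cryab over 1030 bases on the opposite strand.

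Among the co-chaperones, Bag6, which guards hydrophobic proteins in the cytosol, was highest at 137 and 134 TPM. Stip1, the HOP protein that joins HSP70 to HSP90, was at 107 and 90.7 TPM, and St13, the HIP protein that binds HSP70, at 80.8 and 75.7. Bag1 was at 81.1 and 72.4 TPM, Hspbp1, an HSP70 exchange factor, at 45.6 and 45.2, and Bag5 at 27.6 and 26.9. Bag2 was at 4.67 and 5.14 TPM and Bag3, which is induced by heat shock factor and serves selective autophagy, at 2.80 and 3.44. Bag4 was at 28.6 and 21.7 TPM, and its counts were 2243 and 2039: a 441-base retained-intron form, Bag4-203, held 7.41 TPM in replicate 1 and 1.51 TPM in replicate 2. Of the other 2 genes, Hspb11, an intraflagellar transport protein, was at 7.86 and 7.81 TPM and Hspbap1, a partner of Hspb1, at 2.62 and 2.94.

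J-proteins fall into classes A, B and C by their domains, and class C, the most varied, held the most transcript: 840 TPM in 28 genes, against 363 TPM in 13 class B genes and 272 TPM in 4 class A genes. The highest by mean were the synaptic genes Dnajc6, the auxilin that brings Hspa8 to clathrin coats, at 144 and 141 TPM, and Dnajc5, the cysteine string protein of synaptic vesicles, at 140 and 133 TPM. Dnaja1 of class A overlapped Dnajc5 (140 and 125 TPM) and led in the other quantification, with a mean of 275 TPM against 219 for Dnajc5 and 201 for Dnajc6. Dnajc6 was 1.05 ± 0.0246 times Dnajc5 here and 0.919 ± 0.000862 times in the other quantification, so their order changed with the quantification. Dnajc13, an endosomal J-protein that acts with clathrin sorting, was at 31.9 and 33.7 TPM. Gak, the more widely expressed auxilin relative, which lacks a Dnaj symbol, was at 44.5 and 46.9.

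Of the class A genes, those of the cytosol work as general partners of Hspa8. Dnaja1 was at 140 and 125 TPM, Dnaja2 at 95.4 and 88.0, the mitochondrial Dnaja3 at 30.4 and 27.5 and Dnaja4 at 20.8 and 17.8. Hspa8 stood 8.25 ± 0.0414 times above Dnaja1, and 5.57 ± 0.0814 times in the other quantification. In class B, Dnajb5 (93.2 and 95.4 TPM), Dnajb6 (79.4 and 69.4), which suppresses aggregation of polyglutamine proteins, Dnajb2 (45.1 and 41.4), which passes clients to the proteasome, Dnajb4 (30.4 and 34.5) and Dnajb11 (30.9 and 29.7) led. Dnajb1, the inducible HSP40, was at 21.9 and 22.1 TPM. In class C, after Dnajc6 and Dnajc5 came Dnajc7 (112 and 116 TPM), a protein with tetratricopeptide repeats that binds both HSP70 and HSP90, Dnajc27 (41.9 and 42.3), which carries a Rab-like domain, and Dnajc8 (42.3 and 40.4), which works with the splicing machinery. Dnajc7 overlaps the oligodendrocyte gene Cnp over 8912 bases on the opposite strand. Whether the counting used strand is not stated, so reads from such overlaps, also those of Hspb2 with Cryab and of Hspd1 with Hspe1, may be shared.

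J-proteins not detected were Dnajb3 (1.30 and 0.84 TPM), Dnajb13 (0.25 and 0.22), Dnajc5b (0.06 and 0.06), Dnajc22 (0.03 and 0.06) and Dnajb7 (0 and 0.04). For Dnajb8 and Dnajc5g both libraries gave 0 counts, and the limit that this sets is 3 counts, or 0.0913 and 0.0937 CPM (counts scaled to the library total). Several of these 7 are known from testis.

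The genes on the chosen organelle lists were all detected. The 12 of the endoplasmic reticulum list made up 504 ± 21.1 TPM and the 8 of the mitochondrial list 329 ± 14.1 TPM. On the endoplasmic reticulum list Hspa5 and Hsp90b1 held most of the sum, and the J-proteins were lower. Dnajc10 (ERdj5), a disulfide reductase, was at 30.52 and 30.95 TPM, Dnajb12 at 24.0 and 23.1, Dnajb14 at 21.53 and 21.01 and Dnajb9 (ERdj4) at 20.7 and 18.8. Dnajc16 was at 19.1 and 19.3 TPM, Dnajc3 (p58IPK) at 16.7 and 17.1, Dnajc1 at 8.88 and 8.77 and Dnajc25 at 2.97 and 2.77. In the mitochondrion the J-proteins Dnajc15 (36.4 and 32.2 TPM) and Dnajc19 (22.6 and 21.6), which act at the import motor, and Dnajc11 (31.3 and 29.4), which binds the complexes that shape cristae, and Dnajc30 (20.1 and 18.4) were near Dnaja3 in level.

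Partner genes outside the symbol rule were present as well. Of the heat shock factors, Hsf1, the main activator of the heat shock response, was at 27.9 and 32.6 TPM, Hsf2 at 14.7 and 13.3, Hsf4 at 8.30 and 7.73 and Hsf5 at 0.18 and 0.24, and Hsbp1, which binds Hsf1, was at 143 and 139. All 18 HSP90 co-chaperones of the list were detected, led by Fkbp8 (185 and 173 TPM), Ahsa1 (86.1 and 78.3), which speeds up the HSP90 ATPase, and Sgta (81.3 and 75.5). All 13 prefoldin genes and TRiC partners were detected, with Pfdn5 at 195 and 180 TPM, Pfdn2 at 77.9 and 82.4 and the tubulin cofactor Tbcb at 57.5 and 58.9. Of the other HSP70 partners 12 of 13 were detected, among them Hyou1 (66.8 and 61.3 TPM), the exchange factor of Hspa5. All 14 endoplasmic reticulum folding genes were detected, with the lectin chaperones Calr (237 and 219 TPM) and Canx (195 and 185) and the disulfide isomerase Pdia3 (97.2 and 89.4) the most abundant.

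Heat shock factor and unfolded protein response motifs were looked for in the RefSeq windows, which hold 73 of the 90 genes. The heat shock element was searched as GAANNTTCNNGAA and the endoplasmic reticulum stress element as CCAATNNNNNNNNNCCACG, each on both strands. The first was found in 4 of the 73 (5.48%), Hspd1, Hspe1, Dnajb6 and Hsph1, and in 0.662% of all 27025 genes. The second was found in 3 of the 73 (4.11%), Hspa5, Hsp90b1 and Dnajc3, and in 0.137% of all genes. A match is only a run of letters, and the shares describe these windows. The stretches that hold the matches are printed with the match in capitals, on the gene's own strand. Hspd1 and Hspe1 hold the same bases of chromosome 1 read from opposite strands (chr1:55088053-55088082), where 2 matches overlap.
Hspe1: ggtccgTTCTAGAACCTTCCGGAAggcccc
Hspd1: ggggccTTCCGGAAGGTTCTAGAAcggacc
Dnajb6: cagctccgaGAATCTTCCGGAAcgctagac
Hspa5: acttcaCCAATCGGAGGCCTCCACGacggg
Dnajc3: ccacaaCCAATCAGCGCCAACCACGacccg
Hsp90b1: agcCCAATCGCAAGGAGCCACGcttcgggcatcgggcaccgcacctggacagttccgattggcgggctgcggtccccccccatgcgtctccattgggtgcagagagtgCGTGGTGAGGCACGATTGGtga
The Dnajb6 stretch is chr5:29735843-29735872, that of Hspa5 chr2:34772019-34772048, both on the plus strand, and that of Dnajc3 chr14:118937821-118937850, also plus. Hsp90b1, on the minus strand at chr10:86705530-86705659, has a match in each direction, the first at -212 to -194 and the second at -107 to -89. The match of Hsph1 lies after its start, at 16 to 28, and is not printed. The genes with the stress element ranged from 16.9 TPM for Dnajc3 to 165 for Hsp90b1.

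The animals differed little in these genes. Ratios are log2 of replicate 2 over replicate 1 of normalised CPM, over the 18490 genes whose counts averaged 10 or more, each with a 95% interval that covers counting error only. A ratio between single animals has no replicates behind it, so no test was made. A gene was counted as different at a log2 ratio of 0.32 or more in size. Of the 80 genes of the set with enough counts, 3 were, or 3.75%, against 18% of all genes. All 3 were lower in replicate 2, where 6.66% of all genes passed, and none was higher, where 11.4% passed. These calls depend on the scaling: with spike-in scaling none of the 3 passed (Hspa1b -0.08, Hspa1a -0.02, Dnajb3 -0.29), no gene of the set was lower by that much and 21 of 80 were higher, where 50.7% of all genes passed either way. The set is rich in high counts, and where the counts averaged 100 or more, 2 of 75 (2.67%) passed, against 5.54% of all such genes. The 2 were the heat-inducible pair Hspa1b, with a ratio of -0.40 (interval -0.58 to -0.23), and Hspa1a, with -0.34 (-0.54 to -0.15), and Dnajb3 was the third with -0.58 on counts of 27 and 17.

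Small differences ran mostly one way. The ratio was below 0 for 59 of the 80 (73.8%), against 49.9% of all genes, and the interval lay below 0 for 28 (35%), against 11.6% of all genes, and above 0 for 3, against 11%. The median was -0.06, beside 0.00035 over all genes. The counts of the members give narrower intervals, with a median width of 0.20 against 0.42 over all genes. Where counts averaged 100 or more, the ratio was below 0 for 55 of 75 (73.3%) against 54.1% of all such genes, and the interval for 28 (37.3%) against 15.2%. Scaling by the spike-ins in place of the gene totals moved the median of all genes to 0.32 and that of the set to 0.26, so the signs given here are relative to all genes, and that of the median turned under that scaling.

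Lower values were found in the cytosol and in the organelles. Among all genes whose counts averaged 100 or more, 54.1% had a ratio below 0 and 15.2% an interval below 0. Of the cytosolic genes, Hsp90aa1 had a ratio of -0.19 (-0.21 to -0.16), Hsph1 -0.19 (-0.23 to -0.15), Hspa8 -0.16 (-0.18 to -0.14), Hsp90ab1 -0.15 (-0.17 to -0.13) and Stip1 -0.23 (-0.30 to -0.17). All 3 HSP90 genes (median -0.15), all 7 TRiC subunits tested (median -0.10) and 11 of 13 HSP70 and HSP110 genes (median -0.10) were below 0 relative to all genes. The intervals of 3, 6 and 9 of them lay below 0, with upper limits close to it for Cct3 (-0.00014) and Hspa2 (-0.0011). On the spike-in scale the medians of these families were 0.17, 0.22 and 0.22, above 0 and below the all-gene median of 0.32. In the endoplasmic reticulum list 9 of 12 genes were below 0 (median -0.05) and in the mitochondrial list 6 of 8 (median -0.08). Each list had 3 intervals below 0, among them Dnajb9 (-0.16), Hspe1 (-0.17, upper limit -0.00084), Dnaja3 (-0.14) and Hspa9 (-0.11). A list of 14 genes kept as heat shock inducible shares members with these families. It also holds Hspa8, named above as constitutive, so it is not confined to inducible genes. In this list 11 genes were below 0, 9 with their interval, and the median was -0.16 (0.15 on the spike-in scale). The 3 above 0 were Bag3 (0.30, interval -0.02 to 0.62), Dnajb4 (0.06) and Dnajb1 (0.02). Among Hsf1, Hsf2, Hsf4, Hsf5 and Hsbp1, 3 were below 0 and 2 above (median -0.04). Hsf1 had a ratio of 0.19 (0.07 to 0.31) and Hsf2 one of -0.17 (-0.32 to -0.03).

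Of the 5 genes of the unfolded protein response list, 4 were below 0 (median -0.10), Hspa5 at -0.10 (-0.14 to -0.05) and Hsp90b1 at -0.13 (-0.17 to -0.09) among them, and Dnajc3 was at 0.04. The J-proteins were closer to 0, with 25 of 39 below it and a median of -0.03. Below 0 stood 49.9% of all genes, and 54.1% of those whose counts averaged 100 or more. The intervals of 5 J-proteins lay below 0 and those of 2 above, against 11.6% and 11% of all genes. Their class A members had a median of -0.13 and class C -0.01, and the synaptic pair Dnajc6 and Dnajc5 was at -0.02 each with intervals that included 0. The 3 genes whose interval lay above 0 were Dnajb5 (0.19, 0.13 to 0.25), Hspa14 (0.20, 0.04 to 0.37) and Dnajc13 (0.10, 0.02 to 0.17). Outside the set, 14 of 18 HSP90 co-chaperones were below 0, against 49.9% of all genes. The intervals of 9 lay below 0 and that of 1 above, against 11.6% and 11% of all genes. Of the 13 prefoldin genes and TRiC partners 11 were below 0, but 1 interval lay below 0 and 1 above. The other HSP70 partners were split, 7 lower (3 with their interval) and 5 higher (2 with theirs). Of the 14 endoplasmic reticulum folding genes 9 were lower, 6 with their interval, and 5 higher. Sdf2l1, an endoplasmic reticulum partner of J-proteins, stood at -0.45 (-0.73 to -0.18). The markers of striatum, oligodendrocytes and immediate early genes moved between the same libraries with the values given above. Red blood cell markers were also lower in replicate 2 (4 of 5, each with its interval below 0, median -0.25), as were 4 of 6 inhibitory neuron markers (each with its interval below 0, median -0.11). Of the 6 astrocyte markers 5 were lower, 4 with their interval, and 1 was higher with its interval above 0 (median -0.06). Among 6 microglia markers 5 were lower, 1 with its interval (median -0.06). Endothelial (4 of 5) and mural cell markers (5 of 6) were mostly higher, with no interval above 0. The endothelial marker Cldn5 was lower, with its interval below 0 (-0.27, -0.43 to -0.12). Excitatory neuron markers were split, 3 lower and 3 higher. The part of all these markers in the ratios was not tested.

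**Figure D2:**
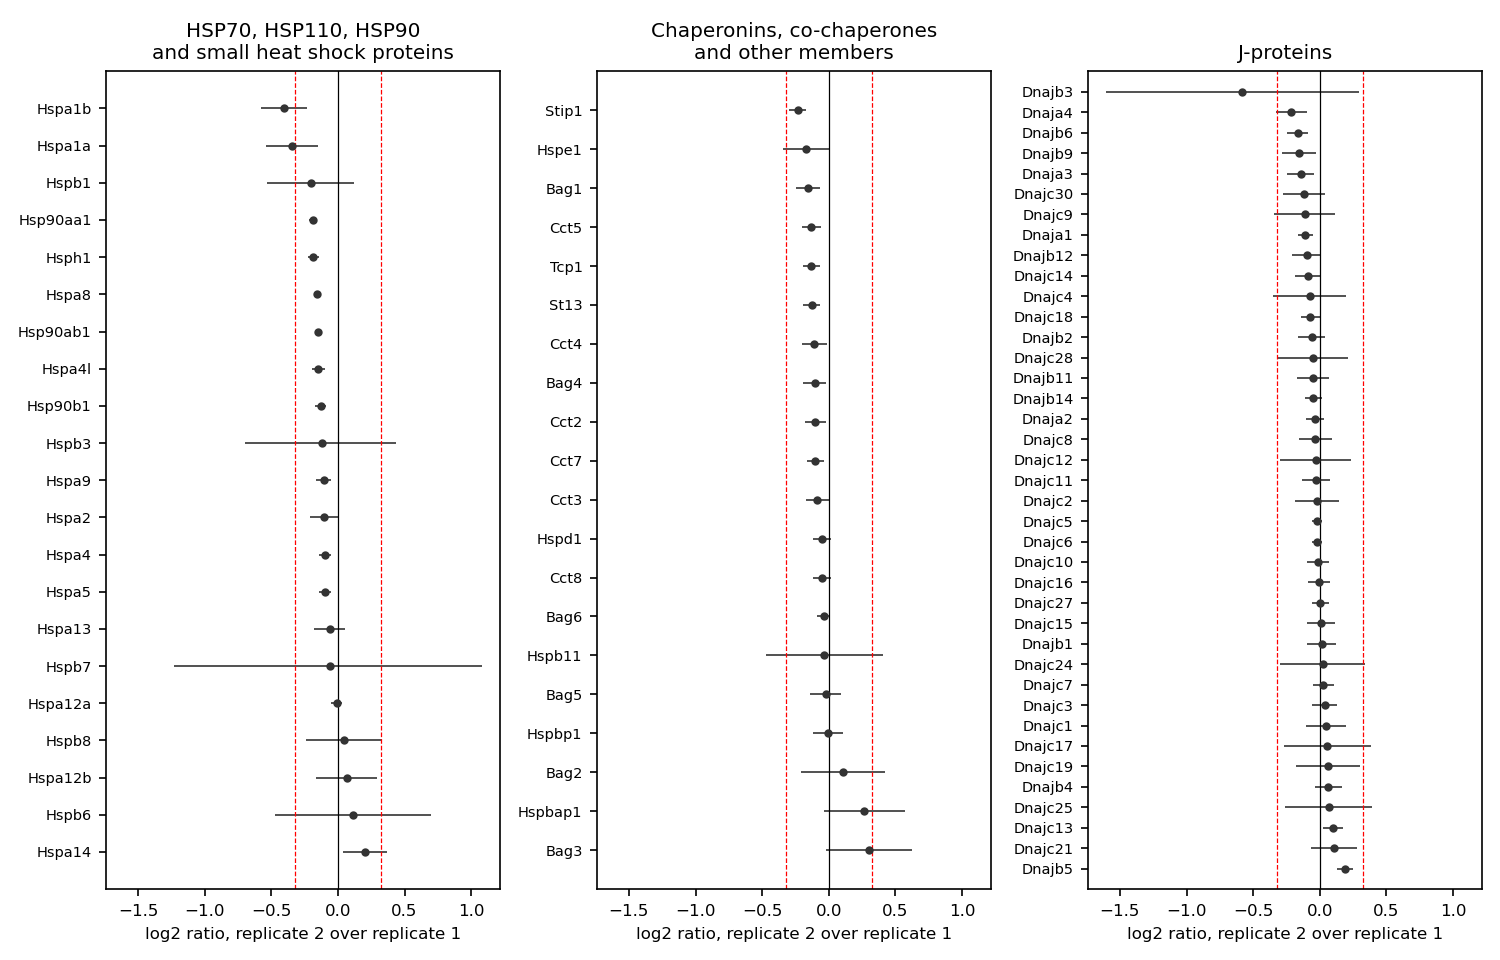
Log2 ratio of replicate 2 over replicate 1 for the 80 genes tested, with 95% intervals for counting error, a solid line at 0 and dashed lines at 0.32 to either side. Hspa1b, Hspa1a and Dnajb3 lie beyond the lower dashed line, no gene lies beyond the upper one, and most points sit just below 0 on this scale (above 0 with spike-in scaling).

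Most of these genes have several annotated transcripts (71 of the 78 detected), and for 74 of the 78 the form with the highest share of the gene's TPM was annotated as protein coding. The median share of that leading form was 75.2%, it was at least 90% in 26 genes and under 50% in 15, and it was the same form in both animals for 75. Over the whole set 83.6% and 84.0% of the TPM lay on protein-coding forms, 8.17% and 7.81% on retained introns, 5.51% and 5.51% on processed transcripts and 2.72% and 2.69% on forms subject to nonsense-mediated decay.

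In 4 genes the leading form was not coding. For Cct7 it was Cct7-202, a nonsense-mediated decay form with an 83-residue reading frame, at 43.9% ± 3.45 (51.4% ± 0.526 in the other quantification), ahead of the 544-residue Cct7-201 at 29.8% ± 1.90. Cct7 was the highest TRiC gene in TPM, and 47.6% ± 4.19 of its TPM lay on non-coding forms. For Dnajc15 it was a 419-base processed transcript, Dnajc15-203, at 45.3% ± 0.412 (48.7% ± 7.64 in the other), and non-coding forms held 71.0% ± 3.36 of the gene. For Dnajc24 the processed transcript Dnajc24-202 led with 53.3% ± 8.76 and for Dnajc19 the retained intron Dnajc19-205 with 49.3% ± 14.4. The lead in Dnajc19 rests on replicate 1 (59.5%): in replicate 2 the coding Dnajc19-202 held 45.2% and Dnajc19-205 39.1%. In Dnajc25 the nonsense-mediated decay form Dnajc25-205 held 17.1% in replicate 1 and led with 39.4% in replicate 2. In the other quantification coding forms led both of these genes, and Dnajc19-205 was at 0. There, Dnaja2-202 (retained intron, 59.3% ± 4.37), Dnajc1-201 (nonsense-mediated decay, 33.4% ± 8.34) and Hspb6-202 (processed transcript, 57.4% ± 41.1) led instead.

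The leading form was the same in both quantifications for 61 of the 78 genes, or 54 of the 71 with a choice. The 17 that differed were Bag1, Dnaja1, Dnaja2, Dnajb2, Dnajb4, Dnajc1, Dnajc5, Dnajc6, Dnajc13, Dnajc19, Dnajc24, Dnajc25, Hspa8, Hspb6, Hspb11, Hsph1 and Tcp1. Hspa8 was the most abundant of them: Hspa8-202 (627 amino acids) held 46.2% ± 0.913 and Hspa8-201 (646 amino acids) 29.3% ± 0.0426 in the alignment-based table, against 0.290% ± 0.141 and 72.7% ± 1.23 in the other. For Hsph1 the 858-residue Hsph1-211 led with 40.3% ± 1.13 and in the other table the 814-residue Hsph1-201 with 25.6% ± 1.62. For Bag1 it was Bag1-201 (91.9% ± 8.29) against Bag1-202 (61.3% ± 3.78), and for Hspb11 the share of Hspb11-201 was 97.5% in replicate 1 and 52.6% in replicate 2. Dnajb6, whose short and long proteins differ in where they act, gave the same order in both: the short Dnajb6-203 (242 amino acids) held 72.4% ± 1.84 and 63.1% ± 0.392, and the long Dnajb6-201 (365 amino acids) 14.0% ± 1.24 and 21.9% ± 0.643.

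**Figure D3:**
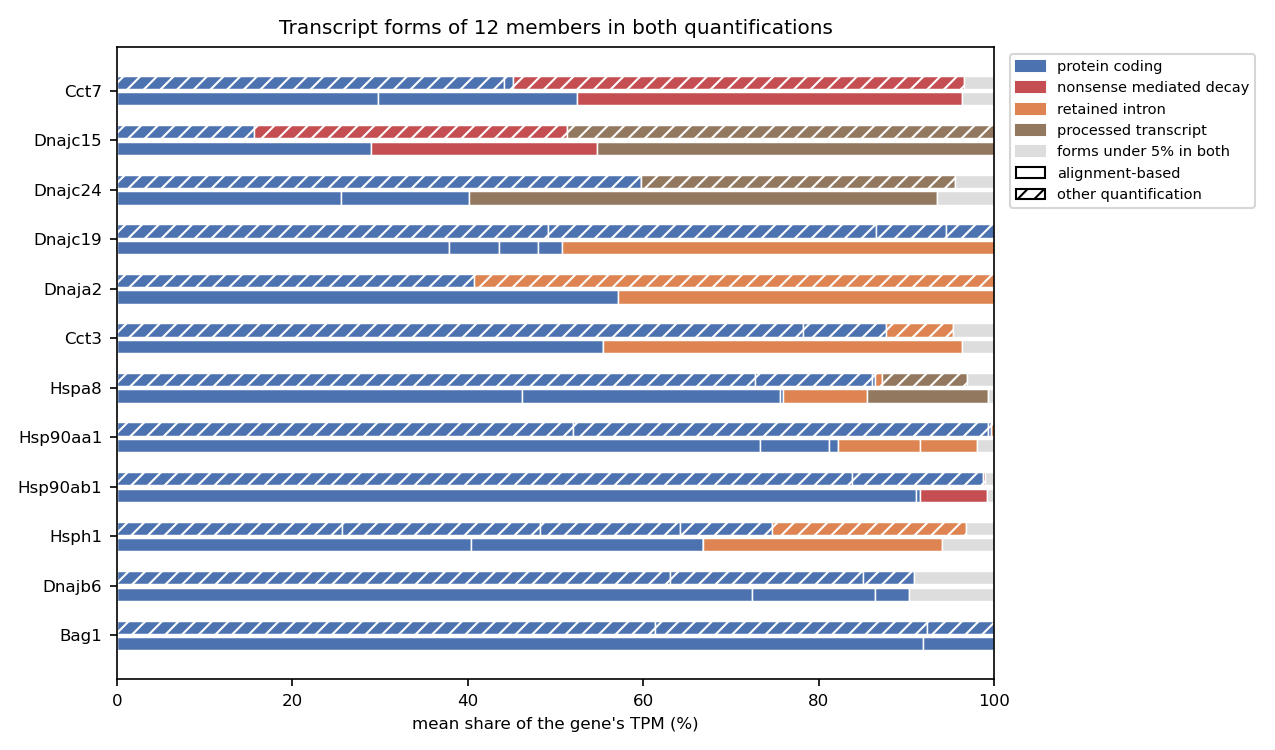
Mean share of each gene's TPM (percent) by transcript form for 12 genes, coloured by annotated class, with the alignment-based table in the plain lower bar and the other quantification in the hatched upper bar. Cct7 and Dnajc15 carry large non-coding shares in both bars, while for Dnajc19 and Cct3 the retained-intron share of the plain bar is at 0 or far smaller in the hatched one.

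Levels also depended on the quantification as a whole. All 78 detected genes were higher in the other quantification, by a median of 1.65-fold and a range of 1.08-fold (Cct3) to 2.60-fold (Dnajc11). Nuclear protein-coding genes, which leave out those of the mitochondrial genome, held 46.6% and 45.6% of all TPM in the alignment-based table. In the other they held 76.0% and 76.4%, so higher TPM there was not particular to this set. Summed over HSP70 and HSP110 genes the level was 1849 ± 133 TPM against 2808 in the other. It was 4012 against 3685 once both were rescaled to nuclear protein-coding genes alone. For HSP90 the values were 1388 ± 125 and 2475 TPM, and 3011 and 3248 rescaled. The gap between the tables was thus smaller on the scale of nuclear protein-coding genes.

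**Figure D4:**
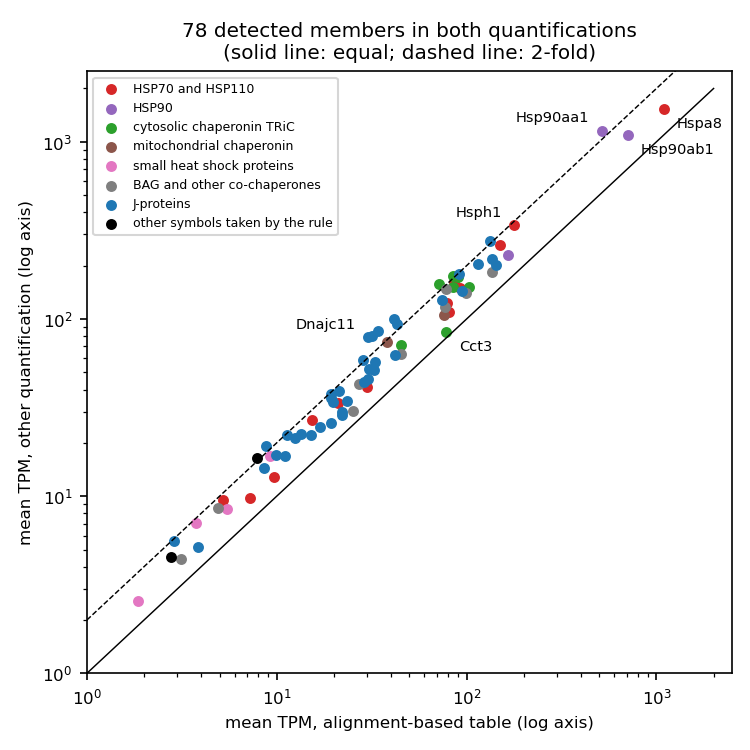
Mean TPM of the 78 detected genes in the alignment-based table (horizontal) and in the other quantification (vertical), both on log axes, coloured by family, with lines for equal values and for 2-fold. Every point lies above the line of equal values, Cct3 (1.08-fold) nearest to it, and Hsp90aa1 stands above Hsp90ab1 on the vertical axis only.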

How the data were processed

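Total RNA-seq tables of 2 libraries were used. The deposited gene and transcript tables give expected counts (estimated read numbers) and TPM, which the authors made from transcriptome alignments (mm10, GENCODE M21), per the file headers and deposited notes. The deposited transcript table of the other quantification gives estimated counts and TPM made from the reads of 1 sequence file. No source used here names the programs. The deposited percent of a gene held by each form was not used: shares were recomputed from TPM. The libraries are taken as separate animals from their numbered labels, although they cite 1 donor record, and any spread between them may be partly technical. Their counts differed by more than sampling noise (chi-square per degree of freedom 6.42).

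Expected counts were rounded. Spike-ins and rows without a gene name (under 2.5e-05% of counts) were left out. Ratios used TMM factors and a prior count of 2 (edgeR 4.0.16, R 4.3.3), with Clopper-Pearson 95% intervals. The calculation was checked on simulated Poisson counts. These hold counting error only, so the check cannot show how the intervals cover the wider spread of these libraries. No molecular identifiers are given, so reads may not be independent molecules. Reads from the CAST/EiJ copy meet a C57BL/6J reference, and that effect was not measured. Alternatives were spike-in scaling, size factors from DESeq2 1.42.0, log2 TPM (pseudocounts 0.1 and 1), a lower prior count (0.5), other count and TPM minimums, the other quantification, rescaled TPM and leaving out each animal.

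The members, lists and naming rule were chosen with earlier results of these data known. The rule names all members of families of 12 or fewer genes, the 5 most abundant J-proteins of each class, J-proteins not detected or on the organelle and induction lists, and members past a log2 ratio of 0.32 between the animals, with a posterior SD above 5%, or with a non-coding or changing leading form. HSP70 and HSP110 genes are all named. Of each partner list it takes the 3 most abundant genes and all heat shock factors. Sdf2l1, Cryab and Gak were named after their values were seen. Protein sequences were not used here.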

Additional observations from a re-analysis of the deposited data

How the results depend on the processing

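No paired analysis was possible because both animals form 1 group. The sums of TPM moved with the table and its scale. In the other quantification they were 2808 (HSP70 and HSP110), 2475 (HSP90), 964 (TRiC), 37.0 (small heat shock proteins) and 2618 (J-proteins). Rescaled over nuclear protein-coding genes they were 4012, 3011, 1211, 46.3 and 3201 in the alignment-based table, and 3685, 3248, 1264, 48.5 and 3435 in the other, the last being chosen after seeing the data. Leaving out each animal gave sums of 1755 to 1944, 1300 to 1476, 536 to 580, 20.5 to 22.1 and 1446 to 1504 TPM, and 78 to 79 genes detected. With spike-in scaling the median log2 ratio was 0.26 and 21 genes passed a log2 ratio of 0.32, all higher in replicate 2, beside 50.7% of all genes. Hspa1b, Hspa1a and Dnajb3 did not pass there. With no count minimum 7 of 88 passed, beside 38.4% of all genes. The other alternatives gave medians of -0.05 to -0.08 and 2 to 4 genes past 0.32. With TPM in place of counts Bag4 passed, and with a pseudocount of 1 Hspa1a did not. Counts of detected genes were 80 at 0.5 TPM, 70 at 5 TPM and 80 in the other quantification. A coding form led 73 genes in the other quantification and 74 genes without replicate 1 or without replicate 2, though not the same ones (Dnajc19 and Dnajc25 changed sides). Depth limits the genes with few counts, such as Hspb9 (2 and 0), Dnajb7 (0 and 1), Dnajb8 and Dnajc5g (0 in both).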

Other observations

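The start regions of this set lie close to those of other genes in several places. Bag4 starts 1 base from Lsm1 (9.16 and 9.19 TPM), Bag5 4 bases from Apopt1 (15.2 and 17.1), Dnajc2 32 bases from the proteasome gene Psmc2 (53.4 and 50.1) and Cct5 48 bases from Fam173b (4.44 and 4.99), each on the opposite strand. Dnajb1 (21.9 and 22.1) starts 222 bases from Tecr, which was at 287 and 267 TPM. These pairs were picked after their values were seen.

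These data hold 2 animals of 1 sex, age and strain and 1 region, so levels carry an SD from 2 values, and differences between the animals have no replicate check. Families with copies elsewhere in the genome (Hspa8, Hsp90aa1, Hspd1, Hspb1, Hspa1a and Hspa1b) rest on how the authors' counting divided shared reads. Promoter windows were given for 73 of the 90 genes, and Hspa8, Hsp90aa1 and Hsp90ab1 are not among them.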
